A study of Mus musculus with 10 samples.

Results

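The genes described here are the ligands and receptors of the classical axon guidance families, chosen by their symbols: the Slits and Robos, the semaphorins with their plexin and neuropilin receptors, the netrins and netrin-Gs with Dcc and the Unc5 receptors, and the ephrins with the Eph receptors. The pattern matched 71 of the 33502 gene symbols in the table, and the 68 with at least 50 UMIs (unique molecular identifiers, each counted as 1 captured transcript) over all nuclei were kept. Efna4, with 49 UMIs, and Sema3b, with 48, fell just short of that minimum, Ntn5 had 15, and Epha2, with 52, was the lowest that passed. The 68 genes comprised 7 Slits and Robos, 19 semaphorins, 11 plexins and neuropilins, 3 netrins, 2 netrin-Gs, 5 netrin receptors, 7 ephrins and 14 Eph receptors.

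Guidance ligands are secreted or held on cell surfaces, and the growing axon reads them through receptors that steer its tip towards or away from the source. Slits repel through Robo receptors, Netrin-1 attracts through Dcc and repels through Unc5 receptors, semaphorins signal through plexins with or without a neuropilin, and ephrins and Eph receptors signal at cell contacts in both directions. Many of these genes stay active in the adult brain, where they are known for roles in synapses, vessels and myelin-forming cells, and in the developing thalamus and habenula they guide the projections of each nucleus.

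The study sequenced single nuclei from punches of a midline thalamic region, the paraventricular nucleus (PVT), and its surroundings, taken along its whole length in C57BL/6J mice aged 12 weeks, with no treatment. The study's methods describe 4 mice pooled for each sample, and 4 such samples. All 10 libraries are taken here as pools and not as animals, although the pooling of the others was not described separately. By their labels 6 libraries were female, and the deposited table of nuclei gave the other 4 as male. The question addressed here is how the guidance genes are distributed over the cell types of this tissue, over the groups of neurons in and around the PVT, and over the PVT subtypes.

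The 20503 nuclei carried 8 deposited cell types, and neurons with over 1000 genes were clustered again with all guidance genes left out, so that the neuron classes were not made from the genes compared. That gave 5796 PVT-like, 1915 mediodorsal-like (MD-like), 1017 BSTpr-like and 855 habenula-like (Hb-like) neurons, and 724 neurons of a cluster known only by Cdh24, its single marker. PVT-like neurons then gave 5 subtypes, PVT1-like to PVT5-like. The PVT1-like class joins 3 clusters of 1530, 866 and 117 nuclei, the last led by the activity-induced genes Fosb, Btg2, Npas4 and Junb. All listed markers of each cell type, group and subtype were highest in their own class. The neuron classes were named from these same markers, so this does not test their names. Some margins were small, such as Esr1 at 27.5 CPM in PVT1-like and 26.8 CPM in PVT2-like neurons. In the clusters of 866 and 117 nuclei, 4 of the 6 PVT1 markers passed the naming limit. Library totals ran from 5119927 to 55956635 UMIs, and the median nucleus held 11157 UMIs in neurons and 1756 to 3658 in the other types. Of 20457 distinct barcodes, 46 occurred in more than 1 library. Levels are counts per 1e6 UMIs (CPM) of the summed nuclei of 1 class in 1 library, and they are compared only within a gene. The UMI totals were scaled by edgeR's TMM normalization factors. Cell types, neuron groups and subtypes were scaled separately, so a level set beside one from another of these comparisons is only approximate. A gene was called higher in a class where edgeR's quasi-likelihood test found it above the mean of the other classes by over 0.5 on the log2 scale, with the library as a term and an adjusted p (Benjamini-Hochberg) under 0.05. It was called lower by the same limits in the other direction. Errors of fold changes are SEs, worked back from the test as the absolute log2 fold change over the square root of its F statistic. The p values measure the spread between these pooled libraries that remains after the library term. Since the authors drew the 8 cell types with all genes, those p values describe the types rather than test them independently.

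Across the 8 cell types, 45 of the 68 guidance genes passed the filter on low counts, and all 45 differed between types. That share carries little by itself, because 97.3% of all 9842 genes tested differed. The distribution over types was uneven. Neurons stood out, with 31 of 45 members called higher (68.9%, against 34.8% of all genes tested) and 5 called lower (background 23.4%). Oligodendrocyte precursors (OPCs) followed with 18 higher (40%, against 20.1% of all genes), then oligodendrocytes with 15 (33.3%, against 20.5%) and fibroblasts with 14 (31.1%, against 10.7%). Endothelial cells had 10 (background 17.4%), astrocytes 9 (background 21.5%), ependymal cells 9 (background 26.7%) and microglia 6 (background 21.3%). In microglia 27 members were lower, 60% of those tested against 29% of all genes, in astrocytes 23 were lower, 51.1% against 19.7%, and in oligodendrocytes 23, against 26.2% of all genes. The median log2 fold change of the members was 1.43 in neurons, where that of all genes tested was 0.16, and -1.16 in microglia, where that of all genes was -0.16.

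**Figure D1:**
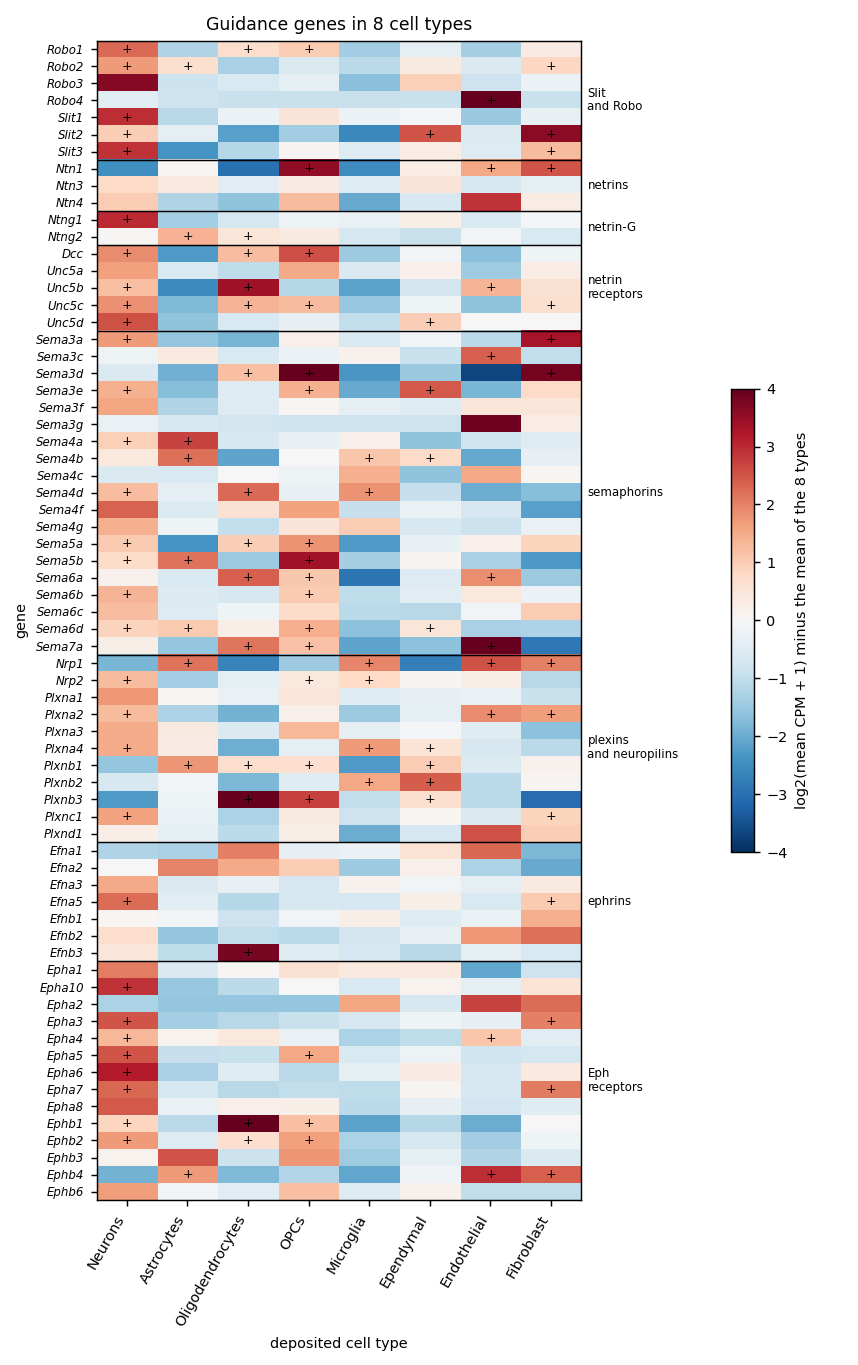
Mean level of the 68 guidance genes (rows, grouped by family) in the 8 deposited cell types (columns), as log2(mean CPM + 1) minus the mean of the 8 types for that gene, with colours clipped at 4 in each direction and a plus where a gene was called higher. Neurons hold 31 of the plus signs, OPCs 18 and microglia 6, and rows without any plus are the 23 members under the filter on low counts.

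Among the Slits, Slit1 and Slit3 were highest in neurons, while Slit2 was higher in fibroblasts and ependymal cells than in all neurons pooled. The Hb-like neurons described later exceeded that pooled level, at a Slit2 median of 784 CPM. Slit3 ran from 462 to 851 CPM over the 10 neuronal sums, and its next highest type, fibroblasts, ran from 52.8 to 418 CPM in 8. The lowest neuronal library lay above the highest library of every other type (log2 fold change 3.52 ± 0.18, edgeR adjusted p = 2.78e-29). Slit1 behaved alike at 74 to 132 CPM, with a median of 94.5 in neurons (log2 fold change 3.51 ± 0.18, edgeR adjusted p = 4.67e-29), with OPCs next at a 5.66-fold lower mean. Slit2 was instead led by fibroblasts (0 to 981 CPM, with a median of 649 over 8 libraries, 1 of which held none) and by ependymal cells (152 to 549 CPM, with a median of 223). Every ependymal library exceeded those of oligodendrocytes and microglia, at 0 to 31.5 and 0 to 19.1 CPM. Fold changes over the other types were 4.14 ± 0.23 and 2.79 ± 0.20 on the log2 scale, with edgeR adjusted p values of 3.32e-26 and 5.67e-21.

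The receptors Robo1 and Robo2 were highest in neurons and were called higher in further types. Robo1 ran at 2305 to 4056 CPM, with a median of 2748 in neurons, above every library of every other type (log2 fold change 2.71 ± 0.20, edgeR adjusted p = 2.03e-20). OPCs, at 828 to 1944 CPM, and oligodendrocytes, at 657 to 1768 CPM, were called higher too. Robo2 was higher in neurons (log2 fold change 2.03 ± 0.15, edgeR adjusted p = 3.30e-20), and fibroblasts, at 59.7 to 278 CPM, with a median of 180.3, and astrocytes, at 118 to 246 CPM, with a median of 143, also passed. Robo4, a receptor of vascular endothelium, ran at 38.3 to 154 CPM, with a median of 108 in the 7 endothelial sums. It had no UMI in any library of ependymal cells, fibroblasts, microglia, OPCs or oligodendrocytes. Against 3 UMIs over the 6935687 of all oligodendrocytes the endothelial mean was at least 237.1-fold higher, and against the fewer UMIs of fibroblasts at least 16.1-fold. The commissural receptor Robo3 was under the filter here, and in neurons it spanned 12 to 129 CPM between libraries.

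Netrin-1, the best known attractant, was nearly absent from neurons and peaked in OPCs. Its level in OPCs was 137 to 353 CPM, with a median of 205, and in neurons 1.58 to 3.31 CPM, with a median of 2.08, so that the ranges lay far apart. The change was 4.31 ± 0.19 on the log2 scale (edgeR adjusted p = 1.98e-32). Fibroblasts, at 0 to 179 CPM, with a median of 106, and endothelial cells, at 15.8 to 140.4 CPM, with a median of 30.9, were also called higher. With every nucleus thinned to 2000 UMIs, 29.4% ± 11 (SD over 9 libraries) of OPCs held a Ntn1 UMI, against 0.407% ± 0.903 of microglia and 0.399% ± 0.196 of neurons, and the unthinned shares were 47.5%, 0.61% and 1.73%. The nuclei kept had median depths of 4428, 3013 and 11304 UMIs. Ntn4, a netrin of basement membranes, and Ntn3 were under the filter.

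The attractive receptor Dcc was highest in the same precursors. Dcc ran at 1297 to 1876 CPM, with a median of 1525 in OPCs (log2 fold change 3.13 ± 0.21, edgeR adjusted p = 1.50e-21), at 825 to 1354 CPM, with a median of 927 in neurons and at 438 to 956 CPM, with a median of 593 in oligodendrocytes, and all 3 types were called higher. The lowest OPC library lay below the highest neuronal one. The repulsive receptor Unc5c was shared by neurons (1371 to 2534 CPM), oligodendrocytes (754 to 2193 CPM) and OPCs (845 to 2315 CPM), whose ranges overlapped. Unc5b was led by oligodendrocytes at 70.8 to 311 CPM, with a median of 187 (log2 fold change 3.94 ± 0.16, edgeR adjusted p = 2.82e-35), whereas Unc5d was led by neurons at 228 to 414 CPM, with a median of 305 (log2 fold change 3.05 ± 0.20, edgeR adjusted p = 2.17e-23). Netrin-G1, a membrane-anchored relative that binds the synaptic adhesion protein Lrrc4c rather than Dcc, was highest in neurons. Ntng1 ran at 3267 to 5647 CPM, with a median of 4632 in neurons, and the highest library of any other type was an OPC sum at 2493 CPM. Ntng2 peaked instead in astrocytes at 18.6 to 90.8 CPM, with a median of 53.1 (log2 fold change 1.65 ± 0.19, edgeR adjusted p = 8.27e-12). That ranking pools all neurons, and Hb-like neurons alone had a Ntng2 mean of 142.1 CPM.

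Semaphorins were called higher in each of the 8 types. Of the 13 tested, 8 were called higher in neurons (against 34.8% of all genes), 8 in OPCs (20.1%), 5 in oligodendrocytes (20.5%) and 4 in astrocytes (21.5%). The secreted Sema3d was among those in OPCs, at 206 to 545 CPM, with a median of 392. Fibroblasts overlapped it at 0 to 388 CPM, while every other type stayed at or below 41.2 CPM and the endothelial libraries held no UMI, which makes the OPC mean at least 83.6-fold higher than theirs at 3 UMIs over that type. Sema5b, a transmembrane semaphorin, was highest in OPCs at 89.3 to 344 CPM, with a median of 237 (log2 fold change 4.02 ± 0.20, edgeR adjusted p = 3.12e-29) and second in astrocytes at 68.7 to 186 CPM, with a median of 93.9 (log2 fold change 2.49 ± 0.19, edgeR adjusted p = 7.58e-20). Oligodendrocytes led Sema6a at 372 to 908 CPM, with a median of 484 (log2 fold change 2.67 ± 0.11, edgeR adjusted p = 5.19e-35) and Sema4d at 159.9 to 407 CPM, with a median of 280.2 (log2 fold change 2.51 ± 0.13, edgeR adjusted p = 1.20e-28). Microglia also held Sema4d, at 175 to 258 CPM, with a median of 205 (log2 fold change 2.02 ± 0.15, edgeR adjusted p = 1.08e-20), and the oligodendrocyte and microglial ranges overlapped. In astrocytes Sema4a was the member with the largest fold change, at 58 to 131 CPM, with a median of 95.3 (log2 fold change 3.20 ± 0.17, edgeR adjusted p = 1.21e-27), and no library of another type reached the astrocyte median.

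Endothelial cells, fibroblasts and ependymal cells each led a semaphorin. Sema7a, anchored in the membrane by a lipid, ran at 99.6 to 275 CPM, with a median of 164 in endothelial cells, above every library of every other type and 5.69-fold over the mean of oligodendrocytes, the next type. Sema3a, the classical repellent for neuropilin-1, was led by fibroblasts at 0 to 260.3 CPM, with a median of 138 over 8 libraries, 1 of them at 0. Neurons, all pooled, followed at 26.5 to 54.7 CPM, with a median of 46.9, and these types were both called higher. PVT4-like neurons alone had a Sema3a mean of 161.5 CPM, within the fibroblast range. In the 4 male libraries alone the fibroblast difference was 2.51 on the log2 scale with an edgeR adjusted p of 0.0884. Sema3e was led by ependymal cells at 82.3 to 233 CPM, with a median of 161 (log2 fold change 2.76 ± 0.18, edgeR adjusted p = 2.46e-23). Hb-like neurons alone exceeded that level, at a Sema3e mean of 419.8 CPM.

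Of 8 plexins and neuropilins tested, 4 were called higher in neurons (against 34.8% of all genes), 4 in microglia (21.3%) and 4 in ependymal cells (26.7%). Neuropilin-1, which also serves as a receptor for vascular growth factors, was high in endothelial cells (270.1 to 691 CPM, with a median of 332), astrocytes (226 to 429 CPM, with a median of 271), fibroblasts (106 to 356 CPM, with a median of 262) and microglia (189.8 to 311 CPM, with a median of 243). These 4 types overlapped one another, and neurons, at 10.2 to 21.1 CPM, with a median of 17.7, lay below all of their libraries. Neuropilin-2 was higher in all neurons pooled (log2 fold change 1.25 ± 0.14, edgeR adjusted p = 1.48e-12), with means of 805.5 CPM in Hb-like and 129.1 CPM in BSTpr-like neurons, while PVT-like (32.2 CPM), Cdh24 (10.6 CPM) and MD-like neurons (5.98 CPM) lay below microglia (90.5 CPM). Plxna4, a receptor for secreted and transmembrane semaphorins, was shared by microglia at 310.3 to 615 CPM, with a median of 535 (log2 fold change 1.98 ± 0.14, edgeR adjusted p = 1.05e-21) and neurons at 313 to 646 CPM, with a median of 420.2, which did not separate. Plxnb2 was led by ependymal cells at 81.7 to 324 CPM, with a median of 205 (log2 fold change 2.77 ± 0.16, edgeR adjusted p = 9.73e-26) with microglia second. Plxnb3 was an oligodendrocyte gene at 107 to 278 CPM, with a median of 133, above every library of every other type, and OPCs held 2.73-fold less. Plxnb1, the receptor of Sema4d, was led by astrocytes at 62.4 to 109 CPM, with a median of 80.7 (log2 fold change 2.08 ± 0.12, edgeR adjusted p = 1.26e-26), and Plxna2 by endothelial cells at 166 to 368 CPM, with a median of 255 (log2 fold change 2.06 ± 0.22, edgeR adjusted p = 9.14e-13). PVT2-like neurons alone had a Plxna2 mean of 269.6 CPM, within the endothelial range.

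Eph receptors were mostly neuronal, with 8 of the 9 tested called higher in neurons, against 34.8% of all genes. Epha6 ran at 875 to 1302 CPM, with a median of 1077 and Epha10 at 110.1 to 175 CPM, with a median of 149, each above every library of every other type (log2 fold change 3.93 ± 0.18, edgeR adjusted p = 2.38e-31 for the former and log2 fold change 3.47 ± 0.15, edgeR adjusted p = 1.52e-32 for the latter). Epha5 was neuronal as well (log2 fold change 3.08 ± 0.17, edgeR adjusted p = 3.41e-27) and was called higher in OPCs. Ephb1, in contrast, was led by oligodendrocytes and ran at 273 to 803 CPM, with a median of 461 there and at 19.96 to 116 CPM, with a median of 31.8 in neurons, with no overlap (log2 fold change 4.92 ± 0.18, edgeR adjusted p = 4.03e-37). Efnb3, a transmembrane ephrin, ran at 236 to 431 CPM, with a median of 294 in oligodendrocytes and at no more than 41.0 CPM in any library of another type (log2 fold change 4.32 ± 0.14, edgeR adjusted p = 1.08e-41). Ephb4, known from veins, was the only tested Eph receptor not higher in neurons, and was called higher in endothelial cells (0 to 66.4 CPM, with a median of 51.5), fibroblasts (0 to 45.6 CPM, with a median of 29.6) and astrocytes (7.52 to 29.5 CPM, with a median of 15.1). Efna5, a lipid-anchored ephrin, was higher in neurons at 415 to 867 CPM, with a median of 558 (log2 fold change 2.73 ± 0.17, edgeR adjusted p = 1.29e-24), and the other 5 ephrins were under the filter.

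Most neuronal genes kept a low level in microglia and oligodendrocytes, as did neuronal markers. For the 18 tested members with their highest mean in neurons, the microglial mean was 7.91% to 71.9% of the neuronal one, with a median of 10.6%, and for the neuronal markers Rbfox3, Snap25, Syt1 and Snhg11 it was 8.10% to 21.7%, with a median of 14.2%. Ntng1, Robo1, Slit1, Slit3, Epha6 and Unc5c lay between 7.91% and 10.4%. The marker shares came from CPM without the TMM factors, so the shares of members and markers are only roughly comparable. A level at that fraction of the neuronal one is read here as possible background, which was not tested. In oligodendrocytes the median was 10.48%, beside 11.9% for the markers, while Unc5c stood at 72.3% and Robo1 at 34.2%. In OPCs these receptors stood at 68.2% and 42.5%. The microglial maximum of 71.9% belonged to Nrp2, which was also called higher in microglia. Several neuronal members were far above the level of the markers elsewhere: Ephb2 in OPCs at 95.0%, Epha7 in fibroblasts at 87.5%, Epha4 in endothelial cells at 86.2% and Sema6b in OPCs at 80.3%. In fibroblasts the median of the 18 members was 27.9%, against 19.9% for the markers.

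The neuron groups differed in most guidance genes. Of 68 members, 55 passed the filter and all 55 differed between the 5 groups, against 79.7% of the 11709 genes tested. In each group the share called higher was above that of all genes: 21 in BSTpr-like neurons (38.2%, against 12.3%), 17 in PVT-like (30.9%, against 10.9%), 17 in Cdh24 (30.9%, against 8.75%), 16 in Hb-like (29.1%, against 22.3%) and 15 in MD-like (27.3%, against 12.1%). Hb-like neurons also had 27 members lower, 49.1% against 20.5% of all genes. The lower members numbered 16 in PVT-like neurons (29.1%, against 6.97%), 14 in MD-like (25.5%, against 15%), 11 in Cdh24 (20%, against 7.18%) and 8 in BSTpr-like (14.5%, against 6.69%). With the guidance genes kept in the clustering, 53 members differed and 94.8% of neurons kept their name. BSTpr-like neurons then numbered 813 rather than 1017, and Hb-like neurons 983 rather than 855. Those Hb-like neurons included a cluster of 187 nuclei, at a median of 3332 UMIs, led by all 8 habenular markers. Which nuclei changed name was not examined, so BSTpr-like levels of genes high in Hb-like neurons carry that limit.

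**Figure D2:**
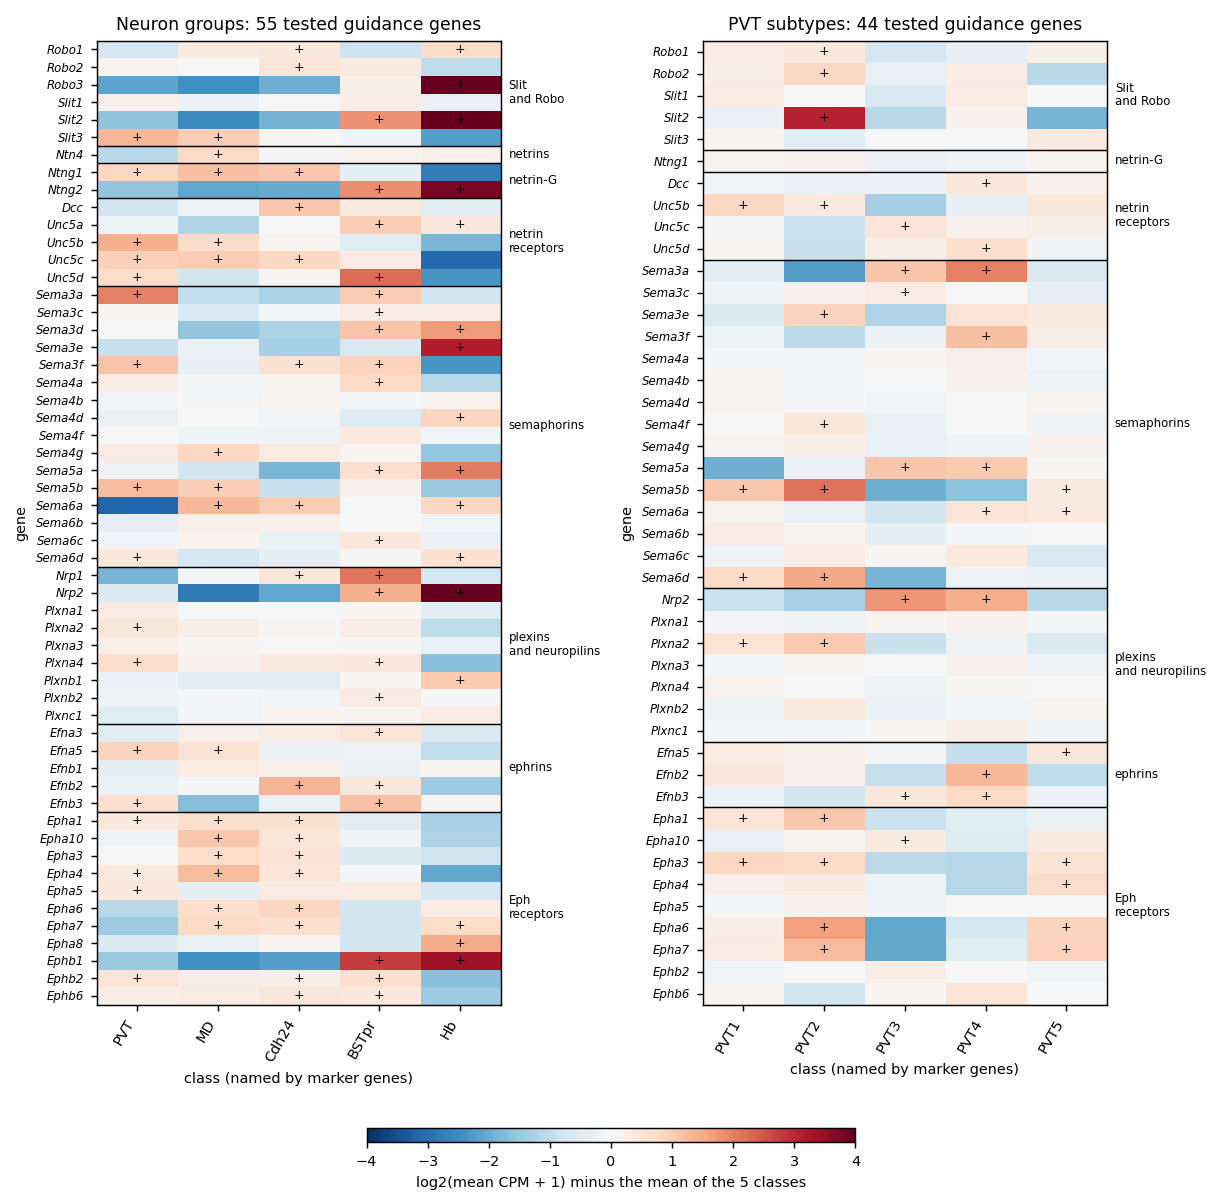
Mean level of the tested guidance genes in 5 neuron groups (left, 55 genes) and in 5 PVT-like subtypes (right, 44 genes), as log2(mean CPM + 1) minus the mean of the 5 classes, with a plus where a gene was called higher. Hb-like neurons carry the deepest red rows (Robo3, Slit2, Ntng2, Nrp2, Sema3e), and in the subtypes PVT2-like neurons carry 13 of the plus signs.

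Hb-like neurons held high levels of several members that the other groups had at low levels. The habenula sends its main output down the fasciculus retroflexus, a tract in whose growth neuropilin-2 is known to act. Robo3 ran at 418 to 841 CPM, with a median of 523 over 10 libraries of Hb-like neurons and at no more than 42.3 CPM in any library of another group, 69.8-fold over BSTpr-like neurons, the next group, by the mean (log2 fold change 9.04 ± 0.13, edgeR adjusted p = 8.37e-51). With nuclei thinned to 2000 UMIs, 61.5% ± 9.65 (SD, 10 libraries) of Hb-like neurons held a Robo3 UMI, against 0.0954% ± 0.141 of PVT-like neurons and 0.0719% ± 0.228 of microglia, whose median depths were 7733, 11881 and 3013 UMIs. Slit2, a ligand of the Robo family, was high in the same neurons at 563 to 974 CPM, with a median of 784 (log2 fold change 5.35 ± 0.13, edgeR adjusted p = 9.66e-40). BSTpr-like neurons came second at 102 to 199.7 CPM, with a median of 154, and the other 3 groups lay at or below 48.2 CPM.

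Nrp2 and Ntng2 followed that order too. Nrp2 ran at 539 to 1249.8 CPM, with a median of 769.8 in Hb-like neurons (log2 fold change 5.14 ± 0.08, edgeR adjusted p = 8.78e-49), at 91.5 to 231 CPM, with a median of 118 in BSTpr-like neurons and at 3.11 to 11.4 CPM, with a median of 4.88 in MD-like ones, and those ranges did not overlap. Ntng2 ran at 62.6 to 258 CPM, with a median of 127 (log2 fold change 5.45 ± 0.18, edgeR adjusted p = 1.31e-33), and the BSTpr-like libraries, which reached 83.4 CPM, overlapped the lowest Hb-like ones. Sema3e was the fifth gene of this kind, at 240.1 to 632 CPM, with a median of 409 with 19.97 to 48.8 CPM in MD-like neurons, the next group (log2 fold change 4.09 ± 0.09, edgeR adjusted p = 4.77e-41), while its receptor Plxnd1 was under the filter. Sema5a (log2 fold change 2.64 ± 0.12, edgeR adjusted p = 1.48e-27) and the receptor Ephb1 (log2 fold change 4.34 ± 0.15, edgeR adjusted p = 5.56e-33) were higher there as well, and Ephb1 overlapped BSTpr-like neurons, at 68.3 to 218 CPM, with a median of 157.

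The upstream sequences of the 4 members with the largest fold changes in Hb-like neurons are shown because these genes were high together in 1 group. They are the 250 bases before the RefSeq start on build GRCm38.p6, the coordinates of which are those of mm10, read 5′ to 3′ on the strand of the gene. Capitals mark TAAT or its reverse complement ATTA, the letters at the core of many homeodomain binding sites.
Robo3, chr9:37433176-37433425, minus strand: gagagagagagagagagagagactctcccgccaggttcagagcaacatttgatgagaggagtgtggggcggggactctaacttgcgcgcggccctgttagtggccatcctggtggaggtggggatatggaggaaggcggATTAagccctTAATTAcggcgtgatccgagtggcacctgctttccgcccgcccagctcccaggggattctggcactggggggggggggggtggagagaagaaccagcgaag
Slit2, chr5:47982905-47983154, plus strand: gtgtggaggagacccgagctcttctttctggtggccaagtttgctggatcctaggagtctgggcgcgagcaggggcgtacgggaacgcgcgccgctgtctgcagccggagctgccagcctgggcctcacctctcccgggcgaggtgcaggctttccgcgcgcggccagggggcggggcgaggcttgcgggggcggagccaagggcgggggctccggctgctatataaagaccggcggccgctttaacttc
Nrp2, chr1:62703067-62703316, plus strand: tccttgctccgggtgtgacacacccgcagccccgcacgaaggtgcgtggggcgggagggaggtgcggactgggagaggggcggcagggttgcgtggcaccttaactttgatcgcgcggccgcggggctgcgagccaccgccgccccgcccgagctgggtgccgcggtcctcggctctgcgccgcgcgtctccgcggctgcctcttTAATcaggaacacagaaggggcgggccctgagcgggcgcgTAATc
Ntng2, chr2:29248100-29248349, minus strand: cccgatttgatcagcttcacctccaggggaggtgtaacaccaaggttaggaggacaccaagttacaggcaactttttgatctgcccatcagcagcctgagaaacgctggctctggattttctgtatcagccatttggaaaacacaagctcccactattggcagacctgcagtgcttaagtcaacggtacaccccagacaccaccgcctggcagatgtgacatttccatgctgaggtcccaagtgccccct
Counting overlapping matches apart, the letters occurred 3 times before Robo3, 2 times before Nrp2 and 0 times before Slit2 and Ntng2, and 54.9% of all 32851 starts in the table held them in a window of that length. The match is a description of the letters only.

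**Figure D3:**
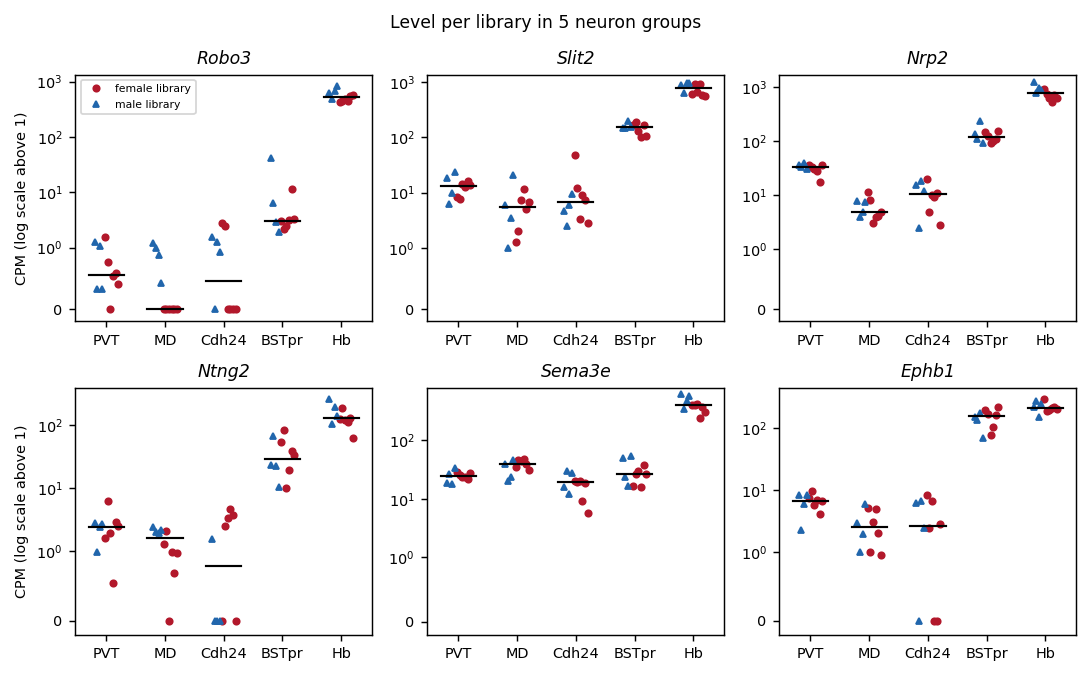
Level per library (points, female circles and male triangles) of 6 guidance genes in the 5 neuron groups, in CPM on an axis that is logarithmic above 1, with a line at the median. Every Hb-like library lies above every library of the other groups for Robo3, Slit2, Nrp2 and Sema3e, while for Ntng2 and Ephb1 the BSTpr-like libraries reach the Hb-like ones.

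Hb-like neurons also had low levels of members that the thalamic groups held. Ntng1 ran at 78.3 to 669.8 CPM, with a median of 279 there, against 4302 to 5134 CPM, with a median of 4805 in MD-like and 3531 to 4013 CPM, with a median of 3690.0 in PVT-like neurons (log2 fold change -3.45 ± 0.16, edgeR adjusted p = 8.35e-27), and the mean of 307.9 CPM was below the 476.6 CPM of microglia. Unc5c ran at 17.1 to 203 CPM, with a median of 76.1 in Hb-like neurons and at 1233 to 1945 CPM, with a median of 1567 in PVT-like neurons (log2 fold change -3.92 ± 0.16, edgeR adjusted p = 4.94e-29), again with a Hb-like mean under the microglial one. Slit3, Epha4 and Sema3f were lower as well (log2 fold change -2.69 ± 0.16, edgeR adjusted p = 1.43e-21 for Slit3). In all, 17 of the 55 members had a Hb-like mean at or below the microglial mean, against 14 in MD-like, 13 in Cdh24, 11 in PVT-like and 8 in BSTpr-like neurons. These counts include members called higher in microglia, such as Nrp1, Plxna4 and Plxnb2, so they do not measure absence from neurons. Plxna4 is counted in PVT-like neurons, for example, at a mean of 404.2 CPM beside 509.2 CPM in microglia.

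PVT-like neurons had the highest levels of the repellents Slit3 and Sema3a and the lowest of Sema6a. Slit3 was highest in them at 504 to 816 CPM, with a median of 614 (log2 fold change 1.68 ± 0.10, edgeR adjusted p = 1.33e-21) and overlapped MD-like neurons, at 419.7 to 624 CPM, with a median of 513. Sema3a ran at 34.6 to 62.8 CPM, with a median of 56.5 (log2 fold change 2.67 ± 0.11, edgeR adjusted p = 4.88e-27), with MD-like and Cdh24 neurons at 2.07 to 10.7 and 2.49 to 7.36 CPM and BSTpr-like neurons overlapping at 7.69 to 66.2 CPM. Sema3f (log2 fold change 1.80 ± 0.16, edgeR adjusted p = 3.63e-14) and Unc5b (log2 fold change 1.81 ± 0.10, edgeR adjusted p = 5.07e-23) were higher too. Sema6a, a transmembrane ligand of Plxna2 and Plxna4, showed the reverse: it ran at 4.32 to 14 CPM, with a median of 9.57 in PVT-like neurons, below every library of every other group, and at 199 to 289.6 CPM, with a median of 227 in MD-like neurons. The difference passed the test (log2 fold change -4.001 ± 0.11, edgeR adjusted p = 1.63e-35), and the mean of 9.44 CPM was below the 12.7 CPM of microglia. Its receptors Plxna2 (log2 fold change 0.62 ± 0.08, edgeR adjusted p = 1.31e-09) and Plxna4 (log2 fold change 0.88 ± 0.08, edgeR adjusted p = 7.53e-14) were higher in PVT-like neurons, and for Plxna2 the difference in the 6 female libraries alone was 0.48, under the minimum of 0.5. Epha7 was also low there, at 45.5 to 110.1 CPM, with a median of 79.1 (log2 fold change -1.80 ± 0.10, edgeR adjusted p = 1.34e-22).

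In MD-like neurons 6 of the 11 tested Eph receptors were called higher, against 12.1% of all genes. Epha4, which binds ephrins of both classes, ran at 235 to 333 CPM, with a median of 289 (log2 fold change 1.62 ± 0.07, edgeR adjusted p = 2.77e-27), and only 1 level of another group, the Cdh24 maximum of 235.4 CPM, reached its lowest library. Epha10 (log2 fold change 1.31 ± 0.07, edgeR adjusted p = 1.09e-24) and Epha3 (log2 fold change 0.90 ± 0.06, edgeR adjusted p = 3.12e-18) were higher as well, and Epha7, at 323 to 465.99 CPM, with a median of 369, overlapped Hb-like and Cdh24 neurons. Cdh24 neurons had 8 Eph receptors called higher, against 8.75% of all genes. Dcc was highest in them at 1612 to 2418 CPM, with a median of 1946 (log2 fold change 1.34 ± 0.07, edgeR adjusted p = 3.82e-23), with BSTpr-like neurons next at 941 to 1634 CPM, with a median of 1121. Efnb2, an ephrin known from arteries, ran at 27.4 to 76.2 CPM, with a median of 38.2 in Cdh24 neurons (log2 fold change 1.82 ± 0.14, edgeR adjusted p = 3.01e-16).

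BSTpr-like neurons, the GABAergic group, had the most members called higher, the receptors Unc5d and Nrp1 among them. Unc5d ran at 315 to 1119 CPM, with a median of 738 (log2 fold change 2.85 ± 0.11, edgeR adjusted p = 3.15e-28), with PVT-like neurons next at 195 to 345 CPM, with a median of 265, which overlapped. Nrp1 ran at 41.9 to 121 CPM, with a median of 63.5 and in PVT-like neurons at 1.97 to 5.37 CPM, with a median of 3.38 (log2 fold change 2.86 ± 0.15, edgeR adjusted p = 4.37e-23), and no library of another group reached its lowest value. The mean of 68.6 CPM was still below the 247.5 CPM of microglia. Ephb1 was higher (log2 fold change 3.57 ± 0.15, edgeR adjusted p = 9.91e-27), as were the ephrins Efnb3 (log2 fold change 1.58 ± 0.12, edgeR adjusted p = 2.14e-16) and Efnb2 (log2 fold change 0.80 ± 0.16, edgeR adjusted p = 7.51e-05).

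Within the PVT-like neurons 44 members passed the filter and 40 differed between the 5 subtypes, against 50.1% of the 10178 genes tested. PVT2-like neurons had 13 members called higher (29.5%, against 5.54% of all genes), PVT4-like 9 (20.5%, against 5.44%), PVT3-like 7 (15.9%, against 7.35%), PVT5-like 7 (15.9%, against 3.51%) and PVT1-like 6 (13.6%, against 3.25%). PVT3-like neurons had the most members lower, 14 (31.8%, against 7.29% of all genes), ahead of PVT2-like with 8 (background 4.57%), PVT4-like with 8 (background 4.44%), PVT5-like with 6 (background 3.97%) and PVT1-like with 3 (background 3.18%). Using only the 4 male libraries the counts called higher were 20 in PVT2-like and 10 in PVT1-like neurons, and with the 6 female ones they were 10 and 5. The share of all genes called in each set was not computed, so the difference is not read as one of guidance genes.

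The members did not fall into 1 order over the subtypes. PVT1-like and PVT2-like had the highest means for 8 of the 44 members, PVT3-like and PVT4-like for 9, PVT2-like and PVT4-like for 6, PVT1-like and PVT4-like for 5, PVT2-like and PVT3-like for 1 and PVT1-like and PVT3-like for 0. PVT5-like neurons shared the highest means with PVT2-like for 6, PVT1-like for 4, PVT4-like for 3 and PVT3-like for 2. Sema6d, a transmembrane semaphorin read by Plxna1, was highest in PVT2-like and PVT1-like neurons. It ran at 1203 to 1750.2 CPM, with a median of 1408 in PVT2-like, 720.1 to 1099.7 CPM, with a median of 825 in PVT1-like and 97.3 to 213 CPM, with a median of 122 in PVT3-like neurons, without overlap, and it was higher in the former (log2 fold change 1.87 ± 0.05, edgeR adjusted p = 2.36e-50). Sema5b was alike, at 77.1 to 144 CPM, with a median of 92.2 in PVT2-like and 0 to 9.67 CPM in PVT3-like neurons (log2 fold change 2.69 ± 0.10, edgeR adjusted p = 8.62e-41). Plxna2 (log2 fold change 1.23 ± 0.05, edgeR adjusted p = 4.59e-35) and Epha3 (log2 fold change 1.03 ± 0.05, edgeR adjusted p = 1.56e-31 in PVT1-like neurons) followed.

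Sema3a and Nrp2 were highest in PVT4-like and PVT3-like neurons. Sema3a ran at 120.1 to 209 CPM, with a median of 152 in PVT4-like and 44.1 to 125 CPM, with a median of 87.9 in PVT3-like neurons, and at 0 to 15.1 CPM, with a median of 7.86 in PVT2-like ones (log2 fold change 2.55 ± 0.09, edgeR adjusted p = 6.05e-43 in PVT4-like neurons). Nrp2 was highest in PVT3-like neurons at 55.6 to 108 CPM, with a median of 86.6 and in PVT4-like at 34 to 85.1 CPM, with a median of 71.3, which overlapped, and at no more than 23.8 CPM in any library of the other subtypes (log2 fold change 2.42 ± 0.08, edgeR adjusted p = 4.58e-44 in PVT3-like neurons). Sema5a ran at 145 to 253 CPM, with a median of 211 and 163 to 228 CPM, with a median of 199 in these subtypes and at 13.1 to 33.7 CPM, with a median of 24 in PVT1-like neurons (log2 fold change -2.34 ± 0.07, edgeR adjusted p = 2.66e-46 for the latter). Nrp1, the usual receptor for Sema3a, was under the filter in PVT-like neurons.

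**Figure D4:**
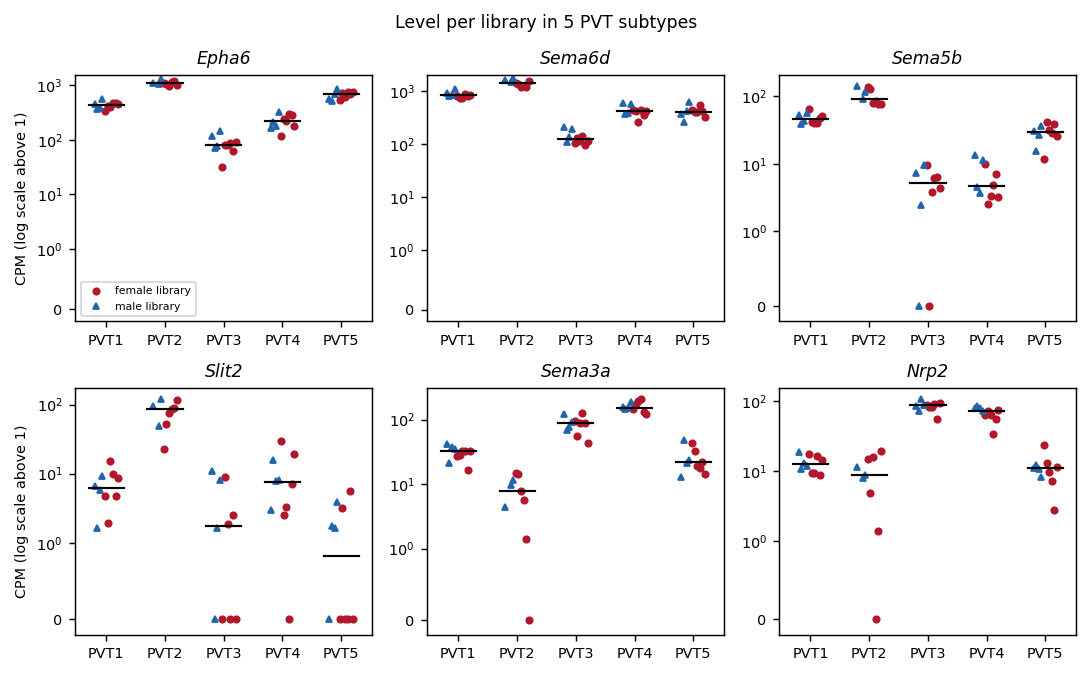
Level per library (points, female circles and male triangles) of 6 guidance genes in the 5 PVT-like subtypes, in CPM on an axis that is logarithmic above 1, with a line at the median. Epha6, Sema6d and Sema5b are highest in every PVT2-like library, while Sema3a and Nrp2 are high in PVT3-like and PVT4-like libraries.

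Only Epha6, Sema5b and Sema6d, all in PVT2-like neurons, had a highest subtype whose libraries all lay above those of the other subtypes. How many of all genes tested separated in that way was not computed, so this describes the named genes only. Slit2 ran at 22.6 to 121 CPM, with a median of 85.3 over 9 libraries of PVT2-like neurons and at 0 to 5.54 CPM, with a median of 0.822 in PVT5-like ones (log2 fold change 3.996 ± 0.15, edgeR adjusted p = 1.86e-40), the largest span of any member over the subtypes, 49.2-fold between the highest and the lowest mean. The highest PVT4-like library, at 29.5 CPM, exceeded the lowest PVT2-like one. The PVT2-like level was still below the 774.5 CPM mean of Hb-like neurons. Epha6 ran at 987 to 1302 CPM, with a median of 1109 in PVT2-like neurons, above every library of the other subtypes (log2 fold change 1.99 ± 0.05, edgeR adjusted p = 9.70e-51), and fell to 31.6 to 143 CPM, with a median of 81.3 in PVT3-like ones. PVT5-like neurons were second for Epha6 at 510.1 to 846 CPM, with a median of 692 (log2 fold change 1.11 ± 0.05, edgeR adjusted p = 4.21e-32) and for Epha7 (log2 fold change 1.18 ± 0.08, edgeR adjusted p = 5.91e-22), but with a finer clustering that left 456 PVT5-like neurons these differences were 0.24 and 0.16 on the log2 scale. Epha4 was highest in PVT5-like neurons at 210.2 to 286 CPM, with a median of 231 (log2 fold change 0.94 ± 0.06, edgeR adjusted p = 6.29e-25).

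PVT4-like neurons held the ephrin Efnb2 at 19.7 to 43.7 CPM, with a median of 28.3 (log2 fold change 1.501 ± 0.13, edgeR adjusted p = 6.60e-18) and the secreted Sema3f at 13 to 46.1 CPM, with a median of 28.6 (log2 fold change 1.59 ± 0.15, edgeR adjusted p = 6.98e-16). The Unc5 receptors were divided among the subtypes. Unc5b was highest in PVT1-like neurons (log2 fold change 1.05 ± 0.07, edgeR adjusted p = 4.23e-25), Unc5c in PVT3-like (log2 fold change 0.63 ± 0.04, edgeR adjusted p = 1.83e-28) and Unc5d in PVT4-like (log2 fold change 0.83 ± 0.06, edgeR adjusted p = 1.16e-23), while Unc5c and Unc5d were both lowest in PVT2-like neurons, at 636 to 1039 CPM, with a median of 833 and 70.7 to 179 CPM, with a median of 143. Their partner Dcc moved little, at most by 0.51 ± 0.06 on the log2 scale in PVT4-like neurons, and it fell below the minimum of 0.5 without replicate 5, 6, 7, 8 or 9, to between 0.44 and 0.50, and to 0.33 in the male libraries alone. Ntng1 differed by less still, from 2838 to 3288 CPM in PVT3-like to 3643 to 4793 CPM in PVT2-like neurons, with log2 fold changes between -0.37 and 0.23.

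The level of Sema3c, a secreted semaphorin, differed between the female and male libraries. In the 3 male endothelial sums it ran at 574 to 1049 CPM and in the 4 female ones at 678 to 1184 CPM, so that these overlapped. In each other type the female mean was higher, and in 4 types the ranges were apart. In neurons the 6 female libraries ran at 66.6 to 459.7 CPM and the 4 male ones at 11.7 to 35.7 CPM, and in microglia they ran at 79.6 to 630.3 CPM and 0 to 68.9 CPM. Astrocytes and OPCs were the other types with no overlap. Over all nuclei the female libraries held 3.04 more on the log2 scale of CPM. The sex of the mice and any other difference between these sets of libraries cannot be told apart. Endothelial cells were highest in both sets, with a difference that passed the test (log2 fold change 3.97 ± 0.29, edgeR adjusted p = 5.57e-20). The calls of Sema3c in BSTpr-like and PVT3-like neurons (log2 fold changes 0.63 and 0.51) fell under the minimum of 0.5 in the female libraries alone, to 0.37 and 0.44.

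**Figure D5:**
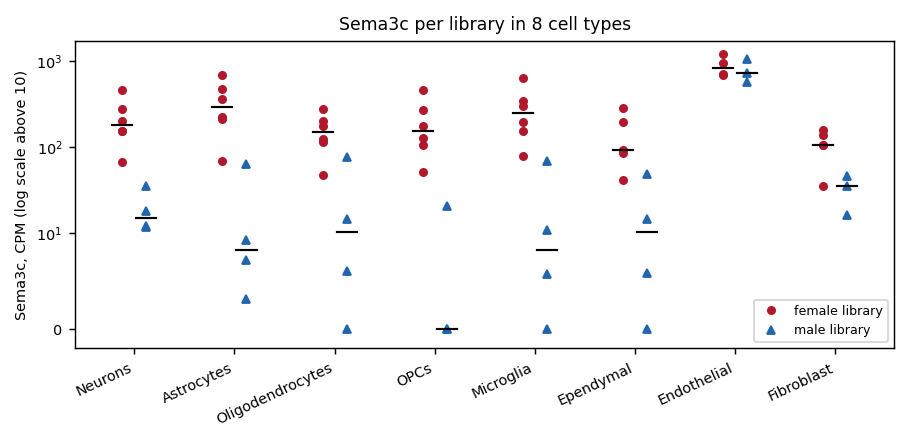
Level of Sema3c per library (points, female circles and male triangles) in the 8 deposited cell types, in CPM on an axis that is logarithmic above 10, with a line at the median of each set. Endothelial libraries of both sets sit between 573.9 and 1184 CPM, while in neurons, astrocytes, microglia and OPCs all female libraries lie above all male ones.

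Of 54 further genes of these pathways that are no members (co-receptors, adhesion partners and the proteins that carry the signal inward), 48 were tested over cell types, and 34 of them were higher in neurons, 70.8%, beside 68.9% of the members. Astrocytes had 21 of these genes higher (43.8%, against 21.5% of all genes) and OPCs 22 (45.8%, against 20.1%). Over neuron groups 50 were tested, and 18 were higher in MD-like neurons (36%, against 12.1% of all genes). The netrin receptor Dscam was highest in OPCs (log2 fold change 4.42), where the netrin-G1 ligand Lrrc4c was higher as well (3.85). The axonal adhesion gene Cntn2 was higher in oligodendrocytes (5.34), and Vav2, which links Eph receptors to the cytoskeleton, in Hb-like neurons (7.13).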

How the data were processed

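Nuclei of PVT punches were sequenced with droplet libraries. The authors deposited raw UMI counts per gene and nucleus with a table of nuclei giving library, sex and cluster, from which 21 further columns were not used. The deposited percent of mitochondrial UMIs was not used in any test. The submitters' processing notes name Cell Ranger 6.1.1 and mm10, and the study's methods name another Cell Ranger version. The authors had removed low-quality nuclei and doublet clusters, and Scrublet (in scanpy 1.11.5), run as an alternative, called 198 nuclei (0.966%).

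Guidance genes and 54 further pathway genes were left out of the variable genes. Mitochondrial genes were left out too, as were genes with under 20 UMIs in either sex or a log2 ratio between the sexes of 3 or more. Neurons over 1000 genes were clustered on Pearson residuals of 3000 variable genes, after a Harmony correction over libraries. The graph used 20 neighbours (scikit-learn 1.9.0). Leiden clustering (igraph 0.11.9) ran at resolution 0.3, and at 0.4 for PVT-like neurons, and clusters were named from fixed markers. The naming rule was revised once, with the names it first gave in view, and the earlier rule was kept as an alternative chosen after seeing the data. Counts were summed per library and class (at least 10 nuclei) and tested with edgeR 4.0.16 in R 4.3.3 (TMM, filterByExpr, quasi-likelihood, Benjamini-Hochberg over all genes), with the library as a term because classes of 1 library share its mice. Alternatives used DESeq2 1.42.0, no filter, sums of 25 nuclei, no library term, 1 sex, each library left out, other clusterings and the deposited clusters. For shares of nuclei with a UMI, nuclei were thinned to 2000 UMIs each and shallower ones left out. Intervals and floors of 3 UMIs cover counting error only. On simulated counts, 97% of genes changed 2-fold were recovered over 9842 genes in cell types. The shares were 98.5% over 11709 genes in neuron groups and 100% over 10178 in subtypes. Each share came from 67 changed genes and was not split by class. These shares are therefore not read as recovery in the shallow fibroblast and endothelial sums. Nor are they read as recovery at the spread of real genes, or by the full limits of a call. Genes named were, in each class, up to 4 members called higher with the largest fold changes, above the mean of the other classes in at least 80% of libraries, plus a list of well-known members. The members and lists were chosen with earlier results of these data known. Promoter sequences came from RefSeq, and 59 members had one.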

Additional observations from a re-analysis of the deposited data

Results flagged for a closer look

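Each value here was a library far from the others of its class, by the gap to the nearest library as a share of the range (Dixon's test). Of 160 sets of 4 to 10 libraries tested, 17 held one, and chance gives about 1 in 20. Male replicate 1 was highest in astrocytes for Sema5b (186.3 CPM, next 118.1) and Nrp1 (429.1, next 315.0), in oligodendrocytes for Plxnb3 (278.1, next 178.2) and in endothelial cells for Nrp1 (691.0, next 394.6). Male replicate 4 was highest in neurons for Robo2 (542.7 CPM, next 417.6) and Unc5c (2534, next 1986) and in PVT1-like neurons for Sema6d (1099.7, next 920.5). Male replicate 3 was highest in BSTpr-like neurons for Efnb3 (74.7 CPM, next 47.9) and Ntn1 (18.04, next 5.99). Female replicate 7 was highest for Efnb2 in Cdh24 neurons (76.2 CPM, next 51.6) and Sema3f in PVT-like neurons (20.2, next 13.8). Female replicate 8 was highest for Efnb1 in fibroblasts (105.7 CPM, next 41.0) and Sema3d in Hb-like neurons (84.4, next 36.2), and lowest for Ntn4 in PVT2-like neurons (0, next 18.8). Female replicate 10 was highest for Ntn4 in endothelial cells (357.3 CPM, next 51.5) and Sema3c in PVT3-like neurons (555.6, next 258.9). Male replicate 2 was highest for Efnb2 in fibroblasts (205.4 CPM, next 79.6). What set these libraries apart was not tested.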

How the results depend on the processing

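The number of members that differed between cell types was 68 with no filter on low counts and 45 with it, since the filter left 23 members untested. Leaving out each replicate in turn gave 45 to 48 members that differed between cell types, 53 to 55 between neuron groups and 36 to 43 between subtypes. Pairs of a member and a class called higher ran from 110 to 118, 82 to 88 and 37 to 46. Without the replicate block, the library term that pairs classes of 1 library, 45, 50 and 32 members differed and 108, 82 and 41 pairs were called higher. No result reversed. Counts in 1 class that moved by over 1.5 times were 17 in endothelial cells, 49 in neurons and 12 in PVT5-like neurons with no filter, and 9 in fibroblasts, 10 in PVT1-like and 20 in PVT2-like neurons in the male libraries alone. Shares of all genes called under the alternative settings were not computed. Of 138 named pairs tested, 123 kept their call under each setting run and 15 did not, and the cause was not tested. Without the block Sema3c in BSTpr-like neurons had an edgeR adjusted p of 0.723 and Sema6a in PVT4-like and PVT5-like neurons 0.278 and 0.452. Sema3c in BSTpr-like neurons fell to 0.49 without replicate 3, and in PVT3-like neurons to between 0.46 and 0.49 without replicate 1, 2, 3, 4, 5 or 6. The shallow sums of fibroblasts and endothelial cells limited which members could be tested there.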

Other observations

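Ntn3 also differed between the female and male libraries. It had no UMI in any of the 6 female libraries in any cell type, and in neurons of the 4 male libraries it ran from 6.91 to 10.2 CPM. Whether the gene was not counted in the female libraries or not expressed there cannot be told apart, so the 0 is not read as absence. In neurons the female and male ranges overlapped for 63 of the 68 members. The share of all genes with separate ranges was not computed, so that count is not read as a trait of guidance genes. Sema4a, Sema4f and Slit1 were higher in all male than in all female libraries, as was Ntn3, and Sema3c was the 1 member higher in all female libraries. Sex and other differences between these sets of libraries cannot be told apart.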
